A study of Mus musculus with 2 samples.

Results

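The genes that carry proteins out of the endoplasmic reticulum (ER) and back to it were examined in rib chondrocytes, the cells of rib cartilage, from V156D mutant mice and wild-type mice. The mutant is a knock-in of V156D in Matn1, which encodes matrilin-1, a secreted protein of the cartilage matrix. Both groups were 5 days old, carried no other stated allele or agent, and each was 1 Affymetrix Mouse Genome 430 2 array of RNA from collagenase-released cells. Per the series' design text, cells of 5 littermates were pooled, and it is not clear whether this was 5 for each genotype or 5 in all. The sources used here do not give sex, strain or zygosity. The 47 genes were listed by role (ER exit, cargo receptors, tethering and fusion, return from the Golgi) and not by a threshold on measured values. Probe sets tied to that gene symbol alone gave a value for 46 of them, out of 18193 genes with a value on the arrays. Tmed1 had no such probe set.

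COPII coats bud from the ER at exit sites. The small GTPase Sar1 recruits the inner coat of Sec23 and Sec24, Sec24 binds cargo, and Sec13 with Sec31 forms the outer cage. COPI coats carry escaped ER residents and recycling receptors in the other direction. Chondrocytes secrete large amounts of collagen and proteoglycan, and the loss of coat components such as SEC23A causes skeletal disease in humans.

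With 1 array for each genotype there was no replicate error, so no test was made and a difference is between these arrays. Each value is a probe set intensity on a linear scale, and each ratio is the log2 of mutant over wild-type intensity for the gene's brightest probe set. A gene was counted as different at 1.5-fold, a log2 ratio of 0.58. The signal floor was the median of the mean log2 signal over all probe sets, an intensity of 54.6, and 45 of the 46 vesicle genes lay at or above it. The median intensity was 55.1 in the mutant array and 54.3 in the wild-type array. Chondrocyte markers were bright in both arrays: all 8 lay above the floor in each, and none differed 1.5-fold. Fewer cells of a type and less RNA per cell cannot be told apart in such bulk RNA.

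The vesicle genes had nearly equal signals in the arrays, with the exception of Sec24a. Of the 45 genes at or above the floor, 0 exceeded 1.5-fold upwards in the mutant and 1, Sec24a, exceeded it downwards. Among all 11329 genes at or above the floor, 3.72% differed 1.5-fold in either direction and 2.02% were lower by that much. Vesicle genes are bright. Among the 5032 genes at least as bright as the dimmest of the 45, 2.96% differed 1.5-fold. The share of 1 in 45 was thus near the background.

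The spread of the ratios was narrow by the brightest probe set and with the values as deposited. Of the 45 genes, 42 lay within 0.2 of 0 on the log2 scale, or 93.3%. This stood beside 67.5% of all genes at or above the floor and 70.9% of the comparably bright genes. The share was not recounted for further probe sets or other scalings. Some further probe sets lay beyond 0.2, such as those of Ergic2 at -0.42 and Stx5a at -0.36. After quantile normalization more genes passed 0.2, such as Lman1 at 0.32 and Copa at 0.24. As deposited, the ratios had an SD over genes of 0.17, and of 0.12 without Sec24a, beside 0.27 for all genes at or above the floor. Without Sec24a they ran between -0.19 for Sec23b and 0.30 for Trappc3. The median ratio was -0.02, the same as that of all genes at or above the floor. It was -0.05 for the 5032 comparably bright genes. There were 24 vesicle gene ratios below 0 and 21 above. Of all genes at or above the floor 55.0% were below 0, and of the 5032 comparably bright genes 3101 were. The split of the vesicle genes depended on how the arrays were scaled. It was 14 below and 31 above after quantile normalization, 16 and 29 after loess smoothing against signal was subtracted, and 28 and 17 with the array medians centred. The median of all genes at or above the floor moved too, to 0.01, 0 and -0.04 in that order. The shares of all genes and of comparably bright genes below 0 were not counted under these scalings. Of the 46 measured genes, 32 kept their sign under all 3 scalings.

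**Figure D1:**
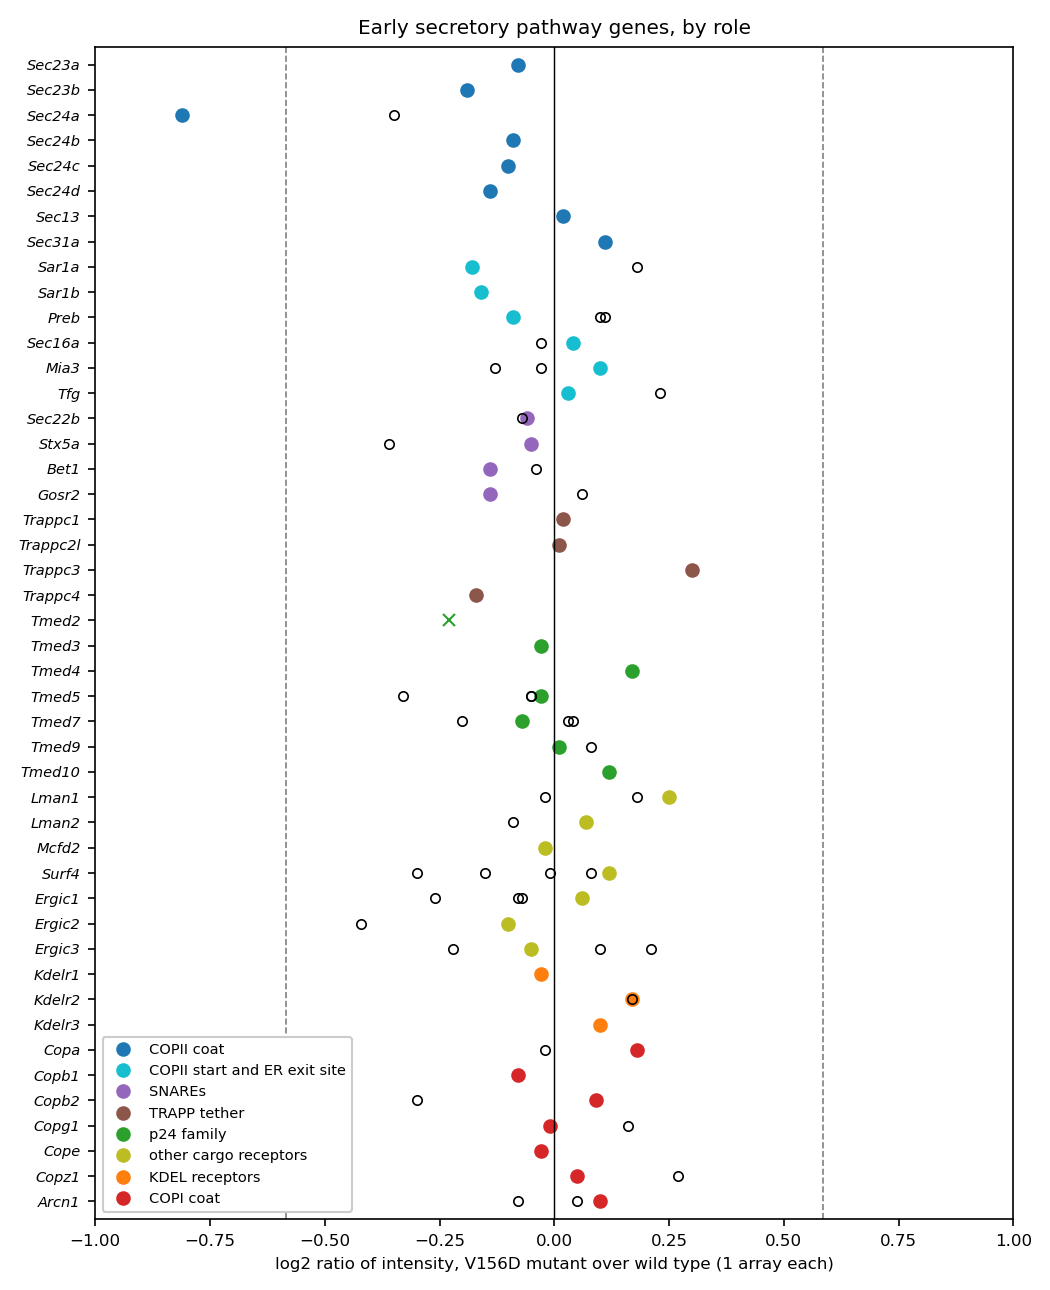
Log2 ratio of intensity (horizontal axis), V156D mutant over wild type, 1 array each, for the 46 measured vesicle genes in rows. Filled points are the brightest probe set, coloured by role, open circles are further probe sets at or above the signal floor, the cross is Tmed2, which lay below the floor, and dashed lines mark 1.5-fold; Sec24a, at -0.81, is the only point beyond them.

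Sec24a, one of the 4 cargo-binding Sec24 proteins of the inner COPII coat, had an intensity of 1035 in the mutant array and 1815 in the wild-type array. It was 1.75-fold lower, a log2 ratio of -0.81. This ratio was the 71st lowest of the 11329 genes at or above the floor, and the ninth lowest of the 1170 genes at least as bright. The second Sec24a probe set was dimmer, with 146 in the mutant and 187 in wild type, a log2 ratio of -0.35. Both probe sets were therefore lower in the mutant, but only 1 of them passed 1.5-fold, and their mean of -0.58 fell just short of it. The ratio of the brighter probe set ran between -0.83 and -0.74 under the 3 scalings.

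The other Sec24 genes had smaller ratios in the same direction. Sec24b had 387 in the mutant and 410 in wild type, a log2 ratio of -0.09. Sec24c had 562 in the mutant and 604 in wild type, a log2 ratio of -0.10. Sec24d, whose protein is required for cartilage matrix export in zebrafish, had 1912 in the mutant and 2109 in wild type, a log2 ratio of -0.14. Sec24a thus stood 0.67 further below 0 than Sec24d, the next lowest of the 4 on the log2 scale.

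The second probe sets of Sec24b and Sec24c lay below the floor and had ratios of 0.39 and 0.19, opposite in sign to the brighter ones. The partner of Sec24 in the inner coat is Sec23, which also activates the GTPase of Sar1. Sec23a had 1509 in the mutant and 1592 in wild type, a log2 ratio of -0.08. Sec23b had 1022 in the mutant and 1162 in wild type, a log2 ratio of -0.19. In the outer coat, Sec13 had 1463 in the mutant and 1442 in wild type, and Sec31a had 1018 in the mutant and 944 in wild type, with log2 ratios of 0.02 and 0.11. By the brightest probe set, the 6 inner coat genes were all below 0 and the 2 outer coat genes above it. Of all genes at or above the floor 55.0% were below 0, as were 3101 of the 5032 comparably bright genes. The means over probe sets of Sec24b and Sec24c were above 0, at 0.15 and 0.04. Only Sec24a differed 1.5-fold, and Sec13 was just below 0 with the array medians centred. The median of the 8 coat genes was -0.09.

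**Figure D2:**
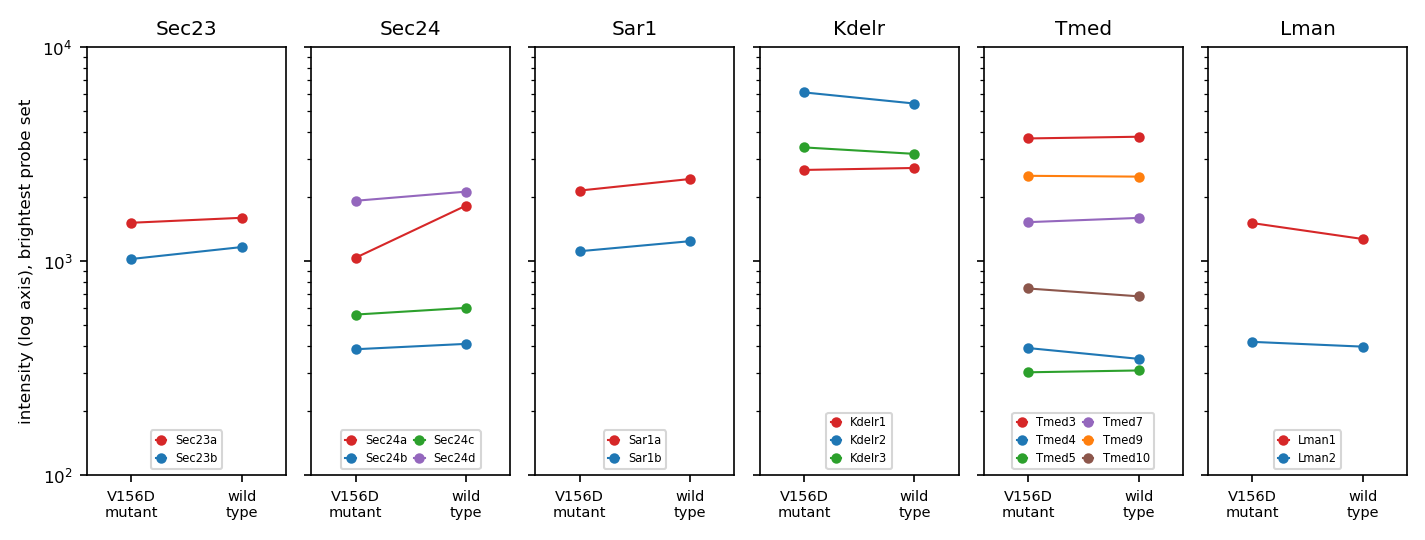
Intensity on a log axis (vertical) in the V156D mutant array (left in each panel) and the wild-type array (right) for paralogue sets of the early secretory pathway, brightest probe set, 1 array each. The line of Sec24a runs between 1035 in the mutant and 1815 in wild type, while the lines of Sec24b, Sec24c and Sec24d are close to level; heights of different genes are not comparable because their probe sets differ.

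The region around the start of Sec24a is shown because it is the only gene of the set that differed 1.5-fold. It is the RefSeq window of 300 bases, from 250 before to 50 after the annotated start, on chr11:51756785-51757084 of GRCm38.p6, minus strand, written in the direction of transcription. Capitals mark TGACGT, read here as ACGTCA on the opposite strand, which is the shared part of the sites bound by CREB and ATF family factors.
Sec24a: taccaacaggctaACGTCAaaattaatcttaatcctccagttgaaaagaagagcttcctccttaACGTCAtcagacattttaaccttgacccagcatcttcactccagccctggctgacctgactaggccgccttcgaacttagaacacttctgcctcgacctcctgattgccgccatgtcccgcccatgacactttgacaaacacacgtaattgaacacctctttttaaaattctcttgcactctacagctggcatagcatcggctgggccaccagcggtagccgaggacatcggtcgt
It held 2 matches to TGACGT, at positions -237 to -232 and -186 to -181 from the start, and 0 to the longer TGACGTG. The shorter element was in the windows of 15 vesicle genes, and all of these except Sec24a had log2 ratios within 0.2 of 0. Sar1a, Gosr2, Stx5a and Cope, with log2 ratios of -0.18, -0.14, -0.05 and -0.03, also held 2 matches each. In Gosr2 and Cope the 2 matches overlapped on opposite strands, whereas those of Sec24a lay apart. The matches were thus not particular to Sec24a, and their part in its value was not tested.

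Heat shock genes were also lower in the mutant array. All 13 measured members of that list were below 0, 8 of them at least 1.5-fold, beside 2.02% of all genes at or above the floor. The list had a median log2 ratio of -0.73 and a summed intensity of 88771 in the mutant and 121563 in wild type. The cochaperone gene Dnaja4 had 1024 in the mutant and 2857 in wild type. The part of this difference between the arrays in the Sec24a value was not tested.

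The genes that start the COPII coat and organise exit sites showed no difference of 1.5-fold. Sar1a, one of the 2 genes of the GTPase, had 2134 in the mutant and 2417 in wild type by its brightest probe set, a log2 ratio of -0.18. Its second probe set had 2193 in the mutant and 1938 in wild type, a log2 ratio of 0.18, so the direction of Sar1a was not settled. Sar1b had 1111 in the mutant and 1238 in wild type, a log2 ratio of -0.16 from a single probe set. Preb, the exchange factor (Sec12) that loads Sar1 with GTP, had 513 in the mutant and 545 in wild type. Its ratio was -0.09, whereas its other probe sets gave 0.10 and 0.11.

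Mia3, which encodes TANGO1, the exit site receptor needed for the export of collagens, had 1187 in the mutant and 1109 in wild type. Its log2 ratio was 0.10, and its further probe sets at or above the floor gave -0.13 and -0.03. The exit site scaffold Sec16a had 983 in the mutant and 958 in wild type, with ratios of 0.04 and -0.03 by its 2 probe sets. Tfg, a protein that clusters vesicles at the exit site, had 2571 in the mutant and 2519 in wild type, a log2 ratio of 0.03, and 0.23 by its dimmer probe set. Of these 6 genes 3 were above and 3 below 0.

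The SNARE proteins fuse ER-derived vesicles with their target membrane. By the brightest probe set all 4 of their genes were below 0, beside 55.0% of all genes at or above the floor. Their median was -0.10, and none was near 1.5-fold. Sec22b had 3229 in the mutant and 3367 in wild type, and its 2 probe sets gave -0.06 and -0.07. Stx5a, the syntaxin of the early Golgi, had 1106 in the mutant and 1143 in wild type, a log2 ratio of -0.05, and its dimmer probe set gave -0.36. Stx5a turned to 0.03 after quantile normalization and 0.01 after loess. Bet1 had 312 in the mutant and 343 in wild type, and Gosr2 823 in the mutant and 904 in wild type, both with a log2 ratio of -0.14. The second Gosr2 probe set gave 0.06.

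The TRAPP complex tethers vesicles and activates Rab1, and its 4 genes showed no common direction. Trappc3 had the highest ratio of all 45 vesicle genes, with 538 in the mutant and 438 in wild type, a log2 ratio of 0.30 or 1.23-fold. It rests on a single probe set. Trappc4 had 462 in the mutant and 520 in wild type, a log2 ratio of -0.17. Trappc1 had 287 in the mutant and 283 in wild type, and Trappc2l 683 in the mutant and 679 in wild type, both within 0.02 of 0 on the log2 scale.

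The p24 proteins, small membrane receptors that sort cargo into both coats, lay close to 0. Tmed4 had 392 in the mutant and 349 in wild type, a log2 ratio of 0.17, the highest of the family. Tmed10 had 744 in the mutant and 684 in wild type, a log2 ratio of 0.12. Tmed7, the lowest at or above the floor, had 1519 in the mutant and 1590 in wild type, a log2 ratio of -0.07, and its other probe sets at or above the floor ran between -0.20 and 0.04. Over 7 genes, which include Tmed2 below the floor, 3 ratios were above 0 and 4 below, with a median of -0.03.

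Tmed3 had 3739 in the mutant and 3808 in wild type, Tmed5 had 302 in the mutant and 308 in wild type, and Tmed9 had 2501 in the mutant and 2479 in wild type. All 3 lay within 0.03 of 0 on the log2 scale by the brightest probe set, and a dimmer Tmed5 probe set gave -0.33. The single Tmed2 probe set, with 17.6 in the mutant and 20.6 in wild type, was below the floor. Tmed2 had a further 6 probe sets that are also listed for the predicted gene Gm10698. They lay well above the floor, the brightest with 6352 in the mutant and 5829 in wild type, and their log2 ratios ran between -0.09 and 0.12. Tmed10 had 4 further probe sets listed also for a pseudogene, with ratios between -0.43 and 0.01. Such shared probe sets cannot assign the signal to 1 gene.

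Cargo receptors of the ER and the intermediate compartment had ratios between -0.10 and 0.25. Lman1, a lectin (ERGIC-53) that carries coagulation factors in humans, had 1504 in the mutant and 1267 in wild type, a log2 ratio of 0.25. Its next probe sets gave 0.18 and -0.02. Mcfd2, the soluble partner of Lman1, had 1635 in the mutant and 1653 in wild type, a log2 ratio of -0.02. The lectin gene Lman2 had 419 in the mutant and 398 in wild type, with 0.07 and -0.09 by its 2 probe sets. The 2 parts of the Lman1 and Mcfd2 complex thus differed by 0.26 on the log2 scale, each by far less than 1.5-fold.

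Surf4, a receptor for many soluble secreted proteins, had 1274 in the mutant and 1169 in wild type, a log2 ratio of 0.12. Its 5 probe sets covered -0.30 to 0.12 and 3 of them were below 0. Ergic1 had 1431 in the mutant and 1376 in wild type, a log2 ratio of 0.06, with the other probe sets at or above the floor between -0.26 and -0.07. Ergic2 had 540 in the mutant and 578 in wild type, with -0.10 and -0.42. Ergic3 had 717 in the mutant and 740 in wild type, a log2 ratio of -0.05, and its 4 probe sets covered -0.22 to 0.21. For these receptors the disagreement between probe sets of a gene was as large as the ratio itself or larger.

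The KDEL receptors return escaped ER chaperones by binding their C-terminal signal. Kdelr2 had 6136 in the mutant and 5443 in wild type by its brightest probe set and 2348 in the mutant and 2081 in wild type by the other. Both gave a log2 ratio of 0.17. Kdelr3 had 3395 in the mutant and 3167 in wild type, a log2 ratio of 0.10. Kdelr1 had 2664 in the mutant and 2721 in wild type, a log2 ratio of -0.03. The median of the 3 was 0.10, and Kdelr2 and Kdelr3 stayed above 0 under all 3 scalings while Kdelr1 did not keep its sign.

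The COPI coat genes lay between -0.08 and 0.18, with a median of 0.05 over 7 genes. Copa, the alpha subunit of coatomer, had 3253 in the mutant and 2874 in wild type, a log2 ratio of 0.18, the highest of the coat, and its dimmer probe set gave -0.02. Copb1, the beta subunit, had 1434 in the mutant and 1513 in wild type, a log2 ratio of -0.08, the lowest. Copb2, the beta prime subunit, had 1837 in the mutant and 1728 in wild type, with 0.09 and -0.30 by its 2 probe sets. Arcn1, the delta subunit, had 1971 in the mutant and 1842 in wild type, with ratios of 0.10, 0.05 and -0.08.

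The remaining coatomer subunits were closer still. Copg1, the gamma subunit, had 1220 in the mutant and 1232 in wild type, a log2 ratio of -0.01, and its second probe set gave 0.16. Cope, the epsilon subunit, had 1573 in the mutant and 1602 in wild type, a log2 ratio of -0.03. Copz1, the zeta subunit, had 803 in the mutant and 775 in wild type, with 0.05 and 0.27. The signs of Copb1, Copg1 and Cope turned under at least 1 of the scalings.

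The probe sets of a gene gave a measure of how far they disagree within these arrays. The part of error in that disagreement was not tested. Of the 99 probe sets of vesicle genes, 85 lay at or above the floor, 48 of them below 0 and 37 above, and 1 differed 1.5-fold. Where a vesicle gene had several probe sets at or above the floor, all had the same sign in 10 of 25 genes, beside 2560 of 4878 genes of all kinds, or 52.5%. The 2 brightest probe sets differed by a median of 0.19 on the log2 scale, beside 0.14 over all such genes. Since 42 of the 45 ratios were within 0.2 of 0, disagreement of this size leaves the order of those genes unresolved. The largest such difference among vesicle genes was that of Sec24a, 0.46.

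**Figure D3:**
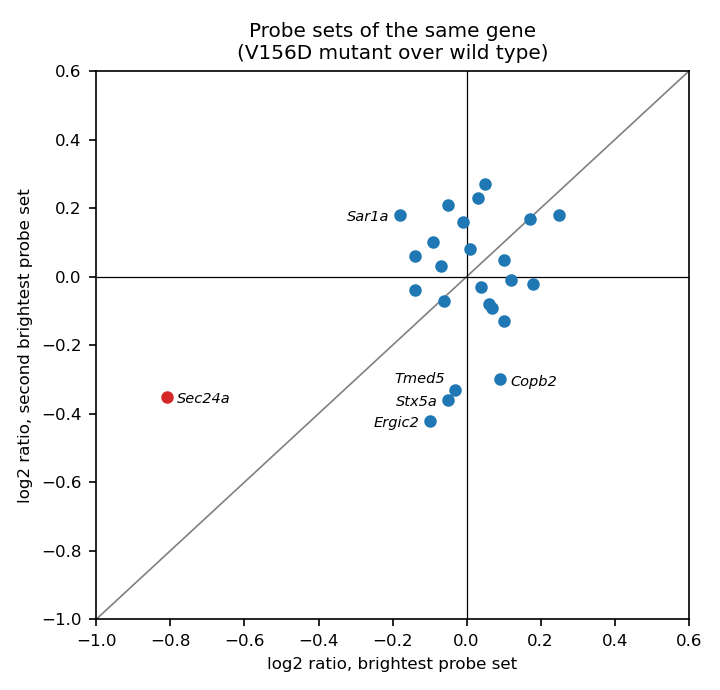
Log2 ratio, V156D mutant over wild type, of the brightest probe set (horizontal axis) against that of the second brightest (vertical axis) for the 25 vesicle genes with a second probe set reaching the floor; points on the grey line have equal ratios. Sec24a, in red, lies below 0 on both axes, at -0.81 and -0.35, while the other points scatter around 0 with 12 of the 25 genes on the same side of 0 in both.

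The promoter windows of the set were searched for elements of the ER stress response, since CREB3L2 in mouse chondrocytes is known to activate Sec23a and since XBP1 and ATF6 act on many secretory genes. RefSeq windows of 300 bases on GRCm38.p6 were at hand for 40 of the 47 genes, 45 windows in all. The element TGACGTG, searched on both strands, was in 7 of the 45 windows, or 15.6%, and in 2.01% of all 32851 promoter windows. The shorter TGACGT, which lies within it, was in 33.3% of the vesicle gene windows and 7.51% of all windows. The full ER stress response element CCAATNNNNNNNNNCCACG was in 0 of the 45 and in 0.119% of all, and ATTGGNCCACG was in 0 of the 45 and in 0.0365% of all. The full window set covers 27025 genes, more than the 18193 with a value, and comparably bright genes were not set apart in it. A match is a description of the letters and not a bound site.

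The 7 stretches are shown because they are what these promoters share. They lie at chr12:59011985-59012031 for Sec23a (minus strand), chr3:123267450-123267496 for Sec24d (plus strand), chr1:183369625-183369671 for Mia3 (minus strand), chr19:8741414-8741473 for Stx5a (plus strand), chr15:79516359-79516405 for Kdelr3 (plus strand), chr7:114254681-114254727 for Copb1 (minus strand), chr9:98563705-98563751 for Copb2 (plus strand). They are written in the direction of transcription, with TGACGTG, or CACGTCA for the opposite strand, in capitals and 20 bases on either side where the window allows.
Sec23a: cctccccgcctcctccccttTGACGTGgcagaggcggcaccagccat
Sec24d: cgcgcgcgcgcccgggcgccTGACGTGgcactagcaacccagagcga
Mia3: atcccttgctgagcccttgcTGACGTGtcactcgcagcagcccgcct
Stx5a: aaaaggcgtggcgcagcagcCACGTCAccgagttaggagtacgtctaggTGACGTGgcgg
Kdelr3: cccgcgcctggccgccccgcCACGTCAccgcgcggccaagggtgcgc
Copb1: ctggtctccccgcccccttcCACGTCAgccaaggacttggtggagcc
Copb2: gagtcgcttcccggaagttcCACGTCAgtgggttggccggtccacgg
The match ended 20 bases before the start in Sec24d, 21 in Copb1 and 23 in Kdelr3, spanned the start in Copb2, lay further upstream in Mia3, and lay after the start in Sec23a and, with 2 matches, in Stx5a.

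The genes with this element did not differ 1.5-fold. Their ratios ran between -0.14 for Sec24d and 0.10 for Kdelr3 and Mia3, with a median of -0.05, beside a median of -0.02 for the 32 measured genes whose windows lacked it. Of the factors that act on such elements, 3 were on the lists, and they are named here after their values were seen. None of the 3 differed 1.5-fold, and the other factors were not analysed here. Creb3l2 had 1660 in the mutant and 1645 in wild type, a log2 ratio of 0.01. Creb3l1 had 213 in the mutant and 202 in wild type, a log2 ratio of 0.08. Xbp1 had 6153 in the mutant and 6820 in wild type, a log2 ratio of -0.15. The arrays do not separate spliced from unspliced Xbp1 RNA in these values.

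Other genes of the early secretory pathway, on a list of 58 that shares no gene with the set, were also close to level. Of these, 57 had a value and 53 reached the floor, with 25 ratios above 0, 28 below 0 and a median of -0.01. None of the 53 differed 1.5-fold, beside 3.72% of all genes at or above the floor. The highest were Trappc6b, a TRAPP subunit, with 4117 in the mutant and 3410 in wild type and a log2 ratio of 0.27, and Nbas, of the tether for returning vesicles, with 0.22. Gbf1, the exchange factor that starts COPI coats by activating Arf1, had 0.18, and the GTPase gene Rab1b had 0.17. The lowest were Lman2l, a lectin related to Lman2, with 424 in the mutant and 515 in wild type and a ratio of -0.28, and Scfd1, a regulator of Stx5a, with -0.20. Bet1l, a Golgi SNARE, had -0.19, and Klhl12, the adaptor of the ubiquitin ligase that enlarges COPII coats for collagen, had -0.16.

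The genes of the proteins that these vesicles carry in cartilage differed little. Of 20 matrix genes on the cargo list, 11 were above and 9 below 0, and the median was 0.02. None of the 20 differed 1.5-fold, beside 3.72% of all genes at or above the floor. The lowest were Ucma, a small secreted protein of cartilage, with 5864 in the mutant and 7611 in wild type and a log2 ratio of -0.38, and the collagen IX gene Col9a2 with -0.35. Both were larger in size than the ratio of any vesicle gene at or above the floor except Sec24a. The highest was Prg4, which encodes lubricin, with 0.16. The summed intensity of the list was 209854 in the mutant and 209646 in wild type. Matn1 itself had 4340 in the mutant and 4373 in wild type. The arrays measure RNA, and the retention or export of the mutant protein was not measured here.

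Some markers of other cells had ratios larger in size than that of Sec24a. Of 10 markers of fibroblasts, tendon and perichondrium, 9 were above 0 and 6 at least 1.5-fold higher, beside 193 of all 11329 genes at or above the floor. These 10 markers had a median of 0.92 and a summed intensity of 57286 in the mutant and 36002 in wild type. Of 8 endothelial markers, 7 were above 0, with a summed intensity of 1020 in the mutant and 635 in wild type. Among the 6 at or above the floor 5 were above 0, beside 5074 of all 11329 genes at or above the floor. Of the 8 markers, 3 lay below the floor in wild type and 0 in the mutant, where Tek, with 55.1, barely passed the floor of 54.6. Markers of osteoblasts, of macrophages and blood, and of skeletal muscle had no member that differed 1.5-fold among those at or above the floor. All these cells use the same vesicle coats, and the part of the cell mixture in the vesicle gene values was not tested.

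**Figure D4:**
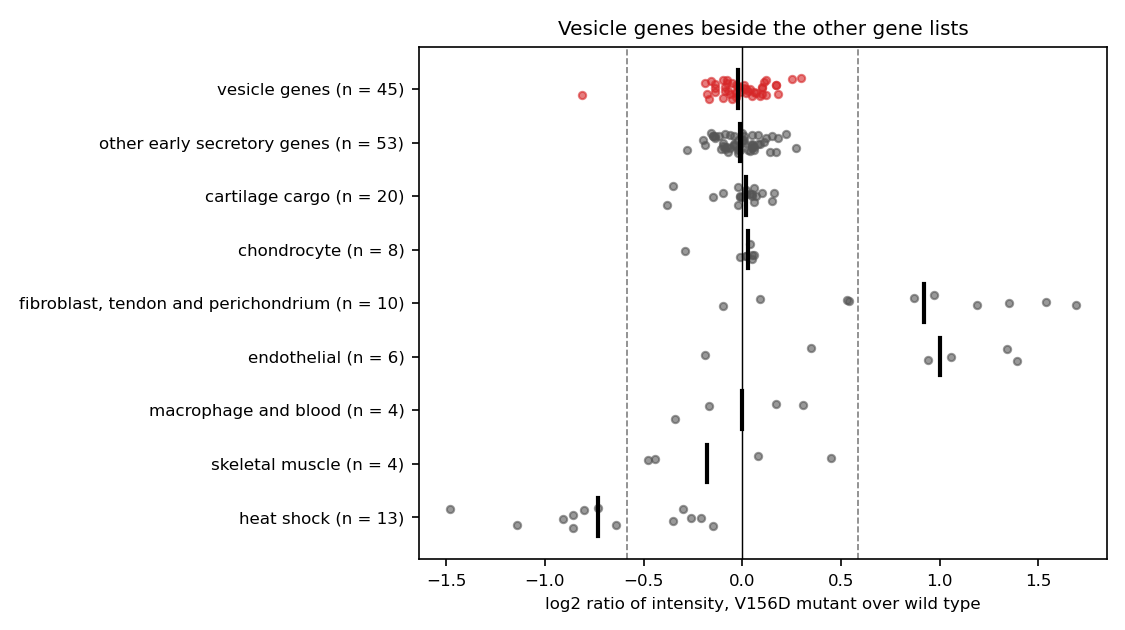
Log2 ratio of intensity (horizontal axis), V156D mutant over wild type, of each gene at or above the signal floor for the vesicle genes (red, top) and the other lists with at least 3 such genes; bars are medians and dashed lines mark 1.5-fold. The vesicle genes, other early secretory genes and cartilage cargo cluster around 0, with medians of -0.02, -0.01 and 0.02, whereas the fibroblast list lies at a median of 0.92 and the heat shock list at -0.73.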

How the data were processed

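Each of the 45037 deposited values of an array is the authors' intensity of a probe set, not log-transformed. MAS5 is named in the submitters' processing notes with no version or settings, and the sources used here give neither scaling nor background steps. A background step can compress differences at low signal. Values were put on the log2 scale with no further normalization. GEO's platform annotation named probe sets, and 34945 with 1 symbol were used. All 99 probe sets of the vesicle genes kept their symbol by Entrez identifier in RefSeq. The brightest probe set by mean log2 signal stood for its gene, and all others were examined. The number of arrays limits precision, and ratios carry no test. The genes named were those at least 1.5-fold different, the highest and lowest of each role, paralogues, genes whose probe sets disagreed, and, of the other early secretory genes, the 4 highest and 4 lowest. The vesicle genes and all other lists were put together by function, but with earlier results of these data known. The reduction to genes was tested on simulated data. Alternatives were array centring, quantile normalization, loess (span 0.3), an offset of 32, the mean over probe sets, only probe sets without _s_at, _x_at or _a_at names, other thresholds and other floors. Python 3.11.15, numpy 2.4.6, pandas 2.3.3, statsmodels 0.14.6 and matplotlib 3.10.9 were used.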

Additional observations from a re-analysis of the deposited data

How the results depend on the processing

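No paired analysis was possible because each genotype had 1 array. Some alternatives could not change a gene's ratio, such as the mean over probe sets for the 16 genes with 1 probe set. Most vesicle gene ratios were also far from 1.5-fold, so few could cross it. Of 270 combinations of a vesicle gene and an alternative that recomputed its ratio, 269 left it on the same side of 1.5-fold. The exception was Sec24a, whose mean over probe sets of -0.58 left 0 genes at 1.5-fold. At a threshold of 2-fold the count was also 0, beside 0.909% of all genes, and at 1.3-fold it was 1 of 45, beside 10.8% of all genes. With 1 array per genotype these counts have no replicate error, and signal over background limits the probe sets below the floor. Quantile normalization left 14 vesicle genes below 0, in place of 24. The median of the vesicle genes ran between -0.04 and 0.05 over all alternatives, and that of all genes between -0.04 and 0.01. Leaving out probe sets with _s_at, _x_at and _a_at names left 38 vesicle genes at the floor and moved the TRAPP median to 0.23, the ratio of Trappc4 by its remaining probe set, which lay below the floor (47.9 in the mutant and 40.7 in wild type). The medians of the inner and outer COPII coat together (-0.12 to -0.03), the SNAREs (-0.12 to -0.04), the KDEL receptors (0.08 to 0.16) and the COPI coat (0.02 to 0.12) kept their sign under every alternative run on them, and those of the other 4 roles did not. Floors and thresholds were not run on role medians. Single genes kept their sign under the 3 scalings less often: 7 of 8 for the COPII coat, 3 of 4 for SNAREs, 2 of 3 for KDEL receptors and 4 of 7 for the COPI coat. The sign is relative to 0, whereas the median of the comparably bright genes was -0.05 as deposited and was not recomputed. The medians thus do not establish a direction for a role.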
